A study of Arabidopsis thaliana with 2 samples.

Results

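Carbon for fatty acid synthesis in the seed plastid was followed through 10 genes that carry sugar phosphates to acetyl-CoA. The genes were chosen by locus identifier and by role, with earlier results of these data known. All 10 of the 33602 gene models in both tables were found, and all 10 passed the minimum of a mean of 1 FPKM. Each has 1 RefSeq transcript, with 3 exons (PDH-E1 ALPHA) to 12 exons (PKP-BETA1 and PKP3). The unit, FPKM, divides sequenced fragments by model length and by library size.

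RNA was sequenced in developing Arabidopsis thaliana seeds at an age labelled 10 DAP. One library came from plants with OLEOp:GmPSKγ1, a soybean gene for a precursor of the peptide hormone phytosulfokine behind a promoter labelled OLEOp. The control library came from plants with OLEOp:GmPSKγ1tc, the control of the study, with the same promoter label. No other allele, strain or treatment is labelled for either group. RNA of 3 individual lines was pooled into the single library of each genotype, so no spread between lines can be given, no test between genotypes can be made, and no difference here has a replicate check. The soybean gene is not among the Arabidopsis models, so the transgene itself was not measured here.

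A developing oilseed embryo imports sucrose and turns much of it into fatty acids inside its plastids. Glucose 6-phosphate and phosphoenolpyruvate enter the plastid through envelope transporters. Enolase makes phosphoenolpyruvate inside the plastid, pyruvate kinase turns it into pyruvate with a gain of ATP, and pyruvate dehydrogenase turns pyruvate into acetyl-CoA, the building block of fatty acids. WRINKLED1 (WRI1), an AP2-type transcription factor, is known to activate many genes of this route in Arabidopsis seeds.

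Of the 10 genes, 9 were higher in GmPSKγ1 and 1 was lower. Among all 17816 genes that passed the same minimum, 57.9% were higher. Among the 2101 abundant genes, those averaging 50 FPKM or more, which include 9 of the 10, 69.8% were higher. The median log2 ratio of the 10 genes, on log2(FPKM + 1), was 0.18, against 0.05 over all genes and 0.12 over the abundant ones. Without PPT1, whose model overlaps another, it was 0.11, below that of the abundant genes, though PKP3, which is not abundant, stays in that set. With all 10 genes and the libraries rescaled without the 50 most abundant genes it was 0.10. Over the 9 abundant members, which leave out PKP3, the 1 lower gene, it was 0.24 as deposited. None of the 10 reached 1.5-fold, which 3.13% of all genes reached upward and 2.68% downward, and none reached 2-fold, which 1.23% reached in either direction. Summed over the 10 genes, 2784 FPKM in GmPSKγ1 stood against 2478 FPKM in the control, 0.405% and 0.359% of all FPKM. Differences were small in every gene, and most abundant genes of the whole table were higher in GmPSKγ1 too.

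FPKM times model length in kilobases advanced by 0.0610 per read in GmPSKγ1 and by 0.0653 in the control, the worth of 1 read in libraries of 16.4 M and 15.3 M reads (M, mega). With exon lengths cut to the deposited ends, all 20 values of the 10 genes came out as whole reads within 0.0029 of a read. Counts ran from 231 reads for PKP3 in GmPSKγ1 to 17077 for PKP-BETA1 in the same library. Exact 95% intervals from these counts (Clopper-Pearson for ratios, Poisson for levels) cover counting error only, not plants, lines or library preparation. By that measure 8 of the 10 genes had a ratio interval above 1, 1 below 1 and 1 that held 1, or 7, 1 and 1 of 9 without PPT1. Over 10547 genes past the minimum with recovered reads and no overlapping model, 23.6% had an interval above 1 and 15% one below 1. Among the 1372 abundant genes of these, the shares were 53.3% and 20.4%. Set against the median ratio of all genes in place of 1, 7 of the 10 lay above, 1 below and 2 held it. The shares were then 18.9% above and 19% below over the 10547 genes, and 44.8% and 25.4% over the abundant ones. Rescaled without the 50 most abundant genes, 5 of the 10 lay above 1 and 1 below, and PKP-ALPHA, PKP-BETA1 and PDH-E1 ALPHA joined GPT1 in holding 1. The shares were then 15.7% above and 22.6% below, and 38.8% and 29.6% over the abundant genes.

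**Figure D1:**
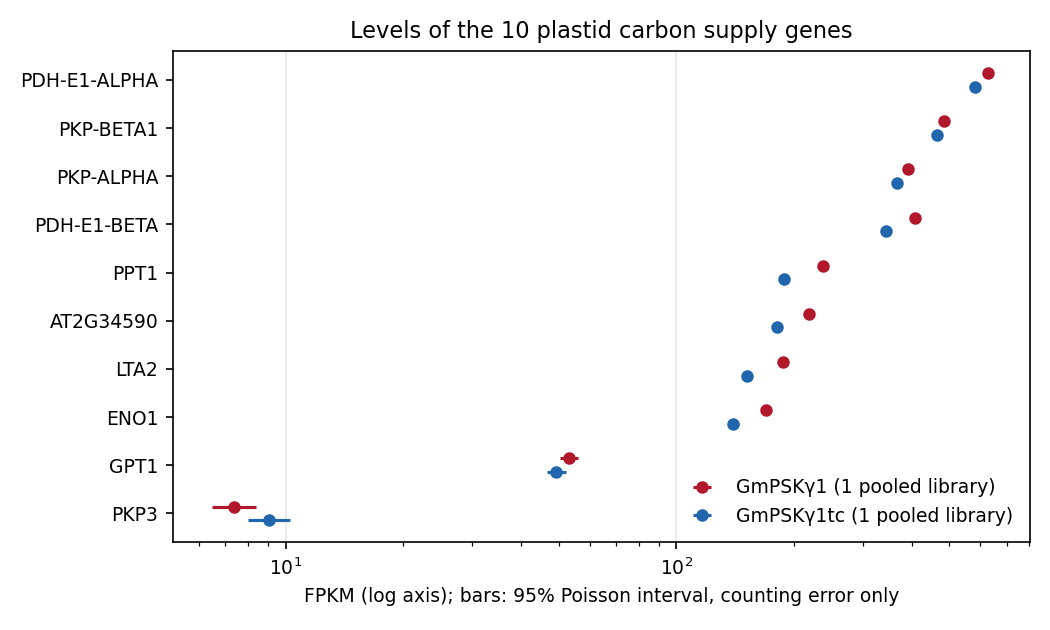
FPKM of each of the 10 genes (horizontal log axis) in the GmPSKγ1 library (red) and the GmPSKγ1tc control (blue), ordered by the control; bars are 95% Poisson intervals and cover counting error only. PDH-E1 ALPHA leads at 629 and 582 FPKM, PKP3 is lowest at 7.39 and 9.07 FPKM, and PKP3 is the one gene with the control point to the right.

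The transporters bring carbon in. GPT1 (AT5G54800; chromosome 5, 22261271 to 22263921, TAIR10), the glucose 6-phosphate/phosphate translocator, had 53.1 FPKM in GmPSKγ1 against 49.3 in the control, on 1447 and 1254 reads. Its ratio was 1.08, with a counting interval of 0.999 to 1.16. GPT1 is the gene of the 10 whose difference lay within counting error.

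PPT1 (AT5G33320; chromosome 5, 12588838 to 12591748, listed as CUE1 in RefSeq), which imports phosphoenolpyruvate, had 237 FPKM in GmPSKγ1 (interval 231 to 243) against 188 in the control (183 to 194). The intervals of the libraries do not overlap, and the ratio of 1.26 (1.21 to 1.30) was the highest of the 10 genes. This ratio stood at percentile 86.6 of all genes past the minimum and 82.4 of the abundant ones. The level of PPT1 was 4.46 times that of GPT1 in GmPSKγ1 and 3.82 times in the control, and this ratio of levels differed between the libraries by 1.17-fold (counting interval 1.07 to 1.27). The model of PPT1 overlaps AT5G33330, and 9.90% of the 30-base words of its transcript also occur in transcripts of 4 other annotated genes. Those 4, AT1G43310, AT2G26220, AT3G30885 and AT5G33330, were each listed at 0 in both libraries.

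ENO1 (AT1G74030; chromosome 1, 27839184 to 27841939), the plastid enolase that makes phosphoenolpyruvate from 2-phosphoglycerate, had 169 FPKM in GmPSKγ1 against 140 in the control, on 4859 and 3756 reads. The ratio was 1.21 (1.16 to 1.26). Of its 30-base words, 4.89% also lie in AT1G74035, which RefSeq places within ENO1 on the opposite strand and which the deposited tables do not list. PPT1 and ENO1 supply the same substrate by different routes, and their ratio of levels, 1.40 in GmPSKγ1 and 1.35 in the control, differed by 1.04-fold with an interval that held 1 (0.983 to 1.10).

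Plastid pyruvate kinase is built from alpha and beta subunits. PKP-ALPHA (AT3G22960; chromosome 3, 8139235 to 8141985) had 391 FPKM in GmPSKγ1 against 368 in the control. PKP-BETA1 (AT5G52920; chromosome 5, 21463538 to 21466880), the beta subunit known from Arabidopsis mutants to matter for seed oil, had 485 and 465 FPKM. Their ratios were 1.06 (1.04 to 1.09) and 1.04 (1.02 to 1.06), close to the median ratio of all genes (1.03) and below that of abundant genes (1.09). The direction of PKP-BETA1 depends on scaling: its log2 ratio was 0.06 as deposited and -0.0235 when the libraries were rescaled without the 50 most abundant genes. In that scaling the ratio interval of PKP-ALPHA held 1 as well (0.981 to 1.03). PKP-BETA1 stood at 1.24 times PKP-ALPHA in GmPSKγ1 and at 1.27 times in the control, a change of 0.979-fold whose interval held 1 (0.947 to 1.01).

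PKP3 (AT1G32440; chromosome 1, 11712162 to 11715112), which encodes the other beta-type subunit, was the exception in level and in direction. It had 7.39 FPKM in GmPSKγ1 (interval 6.46 to 8.40) against 9.07 in the control (8.01 to 10.2), on 231 and 265 reads. The level intervals overlap, while the interval of the ratio of 0.814 (0.680 to 0.975) lay below 1. Under the 7 other settings tried the log2 ratio ran from -0.34 to -0.18. These settings do not check its direction. A pseudocount or a minimum FPKM cannot turn the sign of a single gene, and the rescalings shifted log2 ratios by less than the value of PKP3. PKP-BETA1 made up 98.5% of the FPKM of the beta genes in GmPSKγ1 and 98.1% in the control, 65.6 and 51.3 times the level of PKP3. To show how far the transcripts of these subunits differ, a stretch of both coding sequences around their longest identical run is given from RefSeq (TAIR10.1), with the differing bases in capitals.
PKP-BETA1: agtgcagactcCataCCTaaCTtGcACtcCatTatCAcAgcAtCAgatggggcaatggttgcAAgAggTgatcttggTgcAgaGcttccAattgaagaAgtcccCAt
PKP3: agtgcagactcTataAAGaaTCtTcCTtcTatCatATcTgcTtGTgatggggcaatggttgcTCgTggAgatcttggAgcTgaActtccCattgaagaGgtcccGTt
The stretch is 107 bases long, with 28 differences (coding bases 982 to 1088 and 949 to 1055). Over the whole coding sequence 68.9% of aligned bases are identical and the longest shared run is 17 bases. PKP3 shares no 30-base word with any other annotated transcript.

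Pyruvate dehydrogenase holds 3 kinds of subunit: E1, of alpha and beta chains, decarboxylates pyruvate, E2 passes the acetyl group from its lipoyl arm to coenzyme A, and E3 reoxidises the lipoyl arm. PDH-E1 ALPHA (AT1G01090; chromosome 1, 47485 to 49286) was the most abundant of the 10 genes, at 629 FPKM in GmPSKγ1 against 582 in the control, and ranked 84th of all models in both libraries. Its ratio was 1.08 (1.06 to 1.10), and 1.02 with an interval that held 1 (0.998 to 1.04) when rescaled without the 50 most abundant genes.

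The E1 beta chain is encoded by a pair of genes. PDH-E1 BETA (AT1G30120; chromosome 1, 10584160 to 10586635) had 408 FPKM in GmPSKγ1 against 344 in the control, and AT2G34590 (chromosome 2, 14568811 to 14570969) had 218 and 181 FPKM. Both were higher in GmPSKγ1 by nearly the same factor, 1.19 (1.15 to 1.22) and 1.21 (1.16 to 1.26). PDH-E1 BETA made up 65.1% of their FPKM in GmPSKγ1 and 65.5% in the control, and the interval of this change held 1 (0.983-fold, 0.935 to 1.03). These coding sequences are the most alike of the 8 pairs aligned, so a stretch around their longest identical run follows, again with differing bases in capitals.
PDH-E1 BETA: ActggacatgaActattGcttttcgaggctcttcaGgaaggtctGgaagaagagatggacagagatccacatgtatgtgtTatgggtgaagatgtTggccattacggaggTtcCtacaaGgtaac
AT2G34590: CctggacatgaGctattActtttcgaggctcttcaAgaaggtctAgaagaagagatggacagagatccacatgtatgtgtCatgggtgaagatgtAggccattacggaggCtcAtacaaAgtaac
These 125 bases (coding bases 244 to 368 of each) differ at 10 positions. Over the whole coding sequence 85.6% of aligned bases are identical, the longest shared run is 35 bases, and 6 words of 30 bases are common to both transcripts. How the authors treated reads that match both is not given in the sources used here.

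LTA2 (AT3G25860; chromosome 3, 9460560 to 9462787), an E2 gene of the plastid complex, had 187 FPKM in GmPSKγ1 (182 to 193) against 151 in the control (147 to 156), on 5274 and 3982 reads. The ratio of 1.24 (1.19 to 1.29) was higher than that of E1 alpha: the level of LTA2 was 0.298 of PDH-E1 ALPHA in GmPSKγ1 and 0.260 in the control, a 1.15-fold change (1.09 to 1.20). The ratio of E1 alpha to each beta gene was lower in GmPSKγ1, at 0.911 of the control ratio (0.879 to 0.945) for PDH-E1 BETA and 0.896 (0.855 to 0.938) for AT2G34590. Such intervals cover counting error only. Of the 13 pairs of single genes compared in this way, 10 had an interval that excluded 1, and the share among other gene pairs was not computed. E1 alpha and the summed E1 beta genes were at nearly equal FPKM in GmPSKγ1 (629 and 626), while E1 alpha was ahead in the control (582 and 525).

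**Figure D2:**
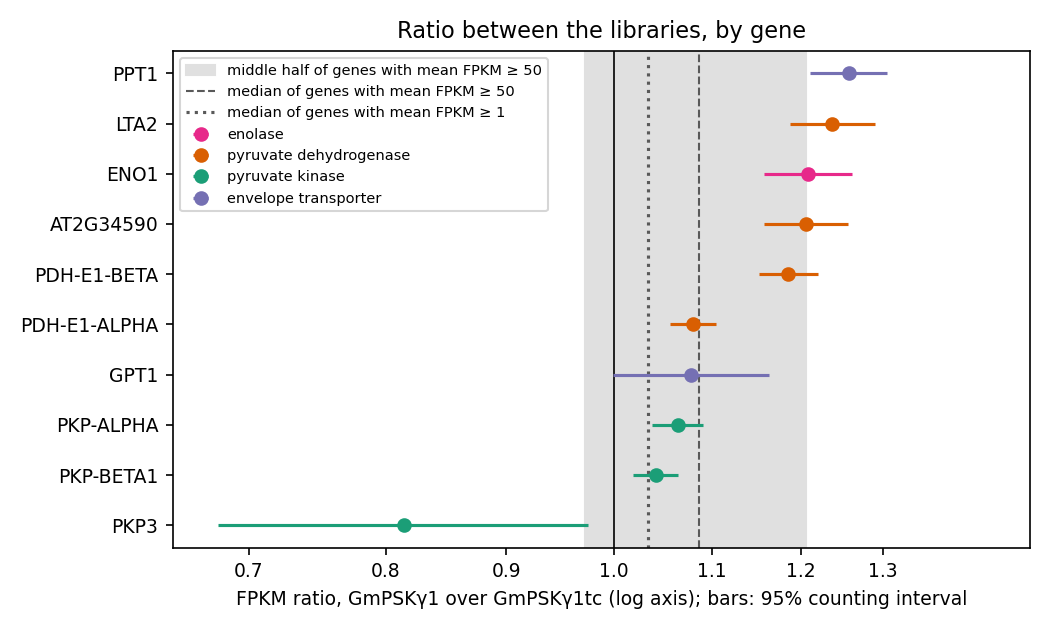
FPKM ratio of GmPSKγ1 over the GmPSKγ1tc control for each of the 10 genes (horizontal log axis) with 95% counting intervals, coloured by role; the grey band spans the quartiles of the abundant genes. PPT1, LTA2, ENO1 and both E1 beta genes lie at 1.19 to 1.26, while PDH-E1 ALPHA, GPT1, PKP-ALPHA and PKP-BETA1 lie at 1.04 to 1.08 and PKP3 at 0.814.

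The plot of ratios shows the 9 higher genes in 2 ranges. PPT1, LTA2, ENO1, AT2G34590 and PDH-E1 BETA had ratios of 1.19 to 1.26, at percentiles 78.8 to 86.6 of all genes and 70.8 to 82.4 of abundant genes. PDH-E1 ALPHA, GPT1, PKP-ALPHA and PKP-BETA1 had ratios of 1.04 to 1.08, at percentiles 51.7 to 60.4 of all genes and 39.2 to 48.5 of abundant ones. This split was drawn after the values were seen and was not tested.

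The order of the levels, which FPKM allows because it is per length, was nearly the same in both libraries. PDH-E1 ALPHA came first, followed by PKP-BETA1, and PPT1, AT2G34590, LTA2, ENO1, GPT1 and PKP3 filled the lower places in that order. PKP-ALPHA and PDH-E1 BETA changed places: PKP-ALPHA was ahead in the control (368 against 344 FPKM) and PDH-E1 BETA in GmPSKγ1 (408 against 391 FPKM). The Poisson intervals of these neighbours did not overlap in either library. PPT1 and AT2G34590 were not apart beyond counting error in the control (183 to 194 against 175 to 187 FPKM), where no other neighbours had overlapping intervals, and none had in GmPSKγ1. From highest to lowest the levels spanned 85.1-fold in GmPSKγ1 and 64.1-fold in the control.

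The remaining subunits of the plastid complex, which are not among the 10 genes, were all 3 higher in GmPSKγ1 (median log2 ratio 0.22). EMB3003, the other E2 gene, had 182 FPKM in GmPSKγ1 against 158 in the control (ratio 1.15, interval 1.11 to 1.20). The E3 genes LPD1 and LPD2 had 99.7 against 85.2 FPKM and 143 against 118 FPKM, and the ratio of LPD2 was 1.22 (1.17 to 1.27). Reads of LPD1 were not recovered. Enzymes that supply the lipoyl arm differed among themselves: LIP1P (lipoyl synthase) had 65.9 against 59.5 FPKM and LIP2P (octanoyltransferase) 7.61 against 5.65 FPKM, while LIP2P2 had 7.38 against 9.38 FPKM with an interval that held 1 (0.599 to 1.03).

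Outside the plastid, the same reactions are catalysed by other genes, and FPKM, being per length, lets their levels be set side by side within a library. Plastid pyruvate kinase genes summed to 883 FPKM in GmPSKγ1 against 842 in the control, 4.73 and 4.70 times the sum of the 10 cytosolic genes listed (187 and 179 FPKM). Plastid E1 alpha was 5.87 and 5.92 times the sum of its mitochondrial counterparts E1-ALPHA and IAR4. Plastid E1 beta exceeded mitochondrial MAB1 more widely, 13.1-fold in GmPSKγ1 and 12.4-fold in the control. Enolase was the other way round, with the cytosolic gene ENO2 (535 and 470 FPKM) at 3.16 and 3.36 times plastid ENO1. That ratio of ENO2 to ENO1 was 0.942-fold in GmPSKγ1 relative to the control (0.897 to 0.989).

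**Figure D3:**
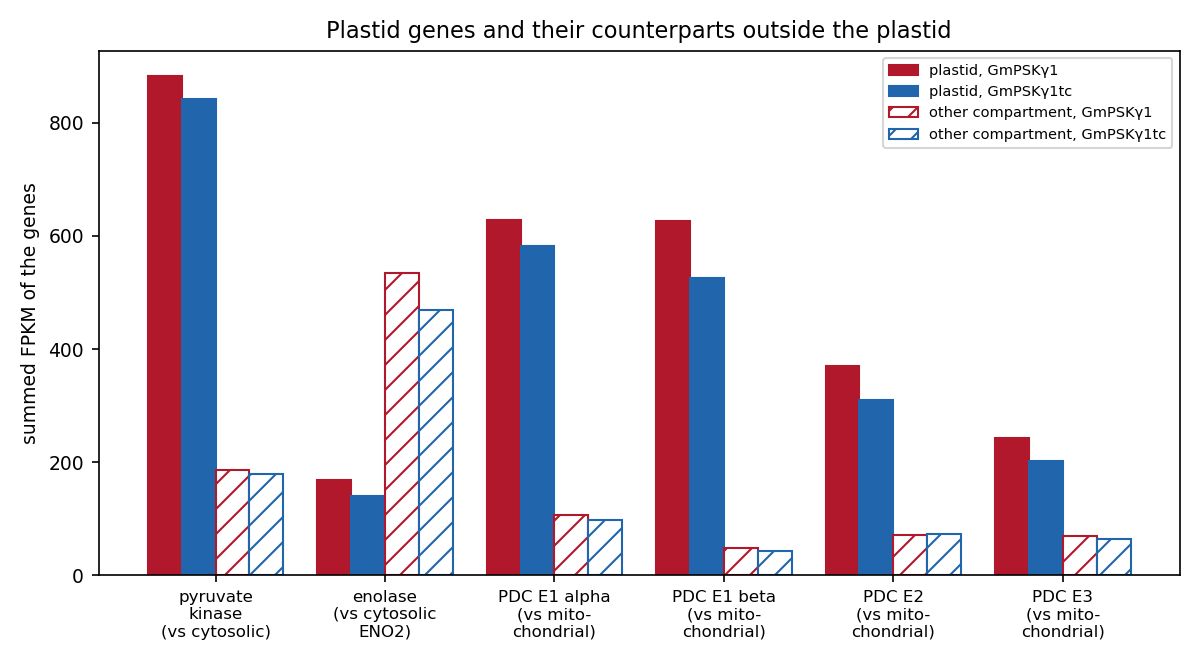
Summed FPKM (vertical axis, from 0) of plastid genes (filled bars) and of their counterparts in the cytosol or mitochondria (hatched bars) in GmPSKγ1 (red) and the GmPSKγ1tc control (blue), 1 pooled library each, without error bars. Plastid transcripts exceed the others for pyruvate kinase and for each pyruvate dehydrogenase subunit, and cytosolic ENO2 exceeds ENO1.

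The mitochondrial complex had a median log2 ratio of 0.04, with 5 of 9 genes higher. Its E1 genes E1-ALPHA and MAB1 had ratios of 1.13 (1.05 to 1.20) and 1.13 (1.04 to 1.23), while the other E1 alpha gene, IAR4, had 0.982 (0.879 to 1.10). PDK, the kinase that inactivates the mitochondrial E1, had 15.6 against 11.7 FPKM. For E2, the plastid genes were at 5.16 times the mitochondrial ones in GmPSKγ1 and 4.27 times in the control. Cytosolic pyruvate kinases had a median of 0.04, with 4 of the 5 measured genes higher, and the other 5 listed genes had a mean under 1 FPKM. Cytosolic ENO2 and ENO3 were both higher, at ratios of 1.14 (1.11 to 1.17) and 1.14 (1.001 to 1.30), and the model of ENO3 overlaps another.

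Upstream in plastid glycolysis, 9 of 12 genes were higher, with a median log2 ratio of 0.12. The median was 0.05 over all genes and 0.12 over the abundant ones, and several of the 12 average under 50 FPKM. The aldolase gene FBA3 had 385 against 352 FPKM and the phosphoglycerate kinase gene PGK1 had 367 against 324 FPKM. PGK2, the other phosphoglycerate kinase gene of the list, was 1 of the 3 lower genes, with 67.8 against 78.1 FPKM. GAPCP1 encodes a plastid glyceraldehyde 3-phosphate dehydrogenase and overlaps another model, and it had 45.03 against 33.5 FPKM, and the aldolase gene FBA1 had 27.9 against 20.7 FPKM. Genes of the plastid oxidative pentose phosphate pathway, a source of NADPH, were higher in 4 of 4 cases (median 0.19).

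Of 7 other envelope carriers, 5 were higher, 1 was lower and PPT2 was listed at 0 in both libraries. BASS2, the sodium-dependent pyruvate carrier, had the largest ratio of this list, with 85.0 FPKM in GmPSKγ1 against 59.9 in the control (1.42, interval 1.33 to 1.52). GPT2, the other glucose 6-phosphate translocator, had 42.8 against 32.5 FPKM (1.32, 1.20 to 1.45), and the ratio of GPT1 to GPT2 was 1.24 in GmPSKγ1 and 1.52 in the control. The triose phosphate translocator gene TPT went the other way, with 110 against 128 FPKM, and its model overlaps another.

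Downstream, 8 of 8 genes of the first steps of fatty acid synthesis were higher, with a median log2 ratio of 0.30. Of all genes 57.9% were higher, and of abundant genes 69.8%. Reads were recovered for BCCP2 alone of these 8, so the others have no counting interval, and some of their models overlap another. BCCP2, a subunit of acetyl-CoA carboxylase, had 474 against 387 FPKM (1.23, 1.19 to 1.26). WRI1 had 108 FPKM in GmPSKγ1 against 93.7 in the control, and the related WRI3 had 6.51 against 6.74. WRI4, whose model overlaps another, was low, with 2.31 FPKM in the control and a ratio of 0.866. The ratio of WRI1 was 1.15, at percentile 73.6 of all genes. Reads of the WRINKLED genes were not recovered, so these ratios have no counting interval.

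**Figure D4:**
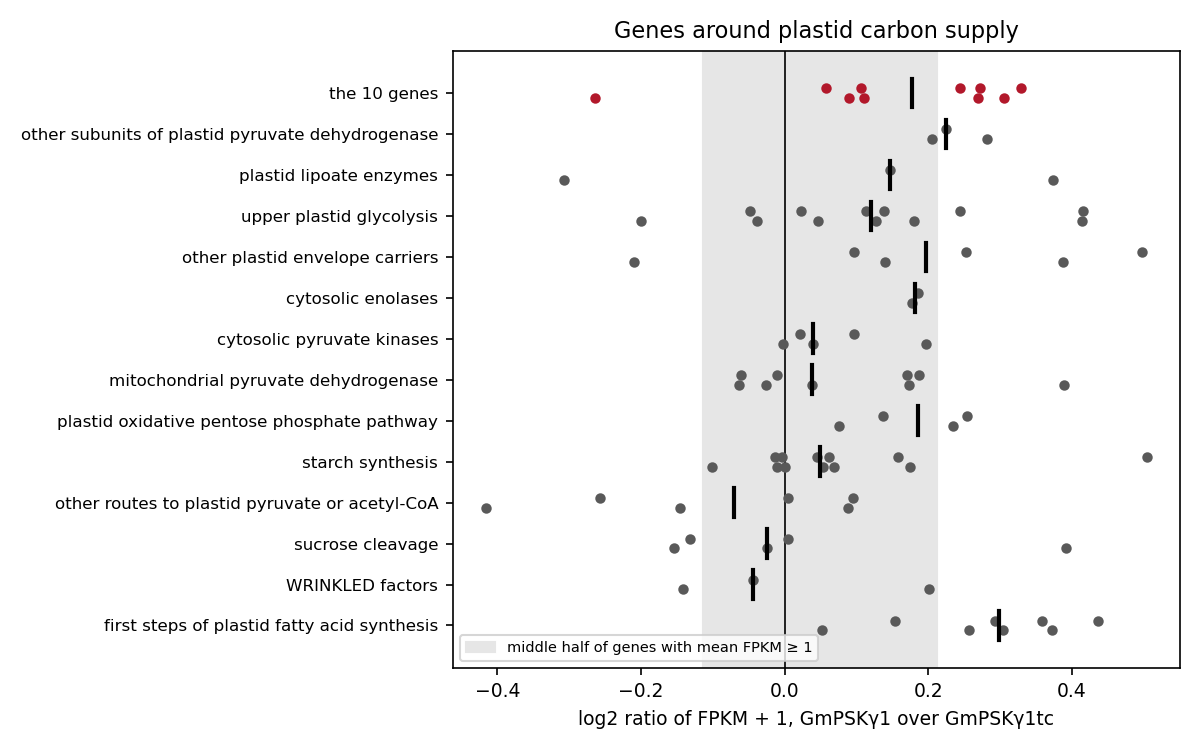
log2 ratio of FPKM + 1, GmPSKγ1 over the GmPSKγ1tc control (horizontal axis), of every gene past the minimum in each list; red points are the 10 genes, grey points the other lists, black bars the medians, and the grey band spans the quartiles of all genes. The median is 0.18 for the 10 genes, 0.22 for the other plastid pyruvate dehydrogenase subunits, 0.30 for the first steps of fatty acid synthesis and 0.04 for both the mitochondrial complex and the cytosolic pyruvate kinases.

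Because WRI1 is known to bind the AW-box, this motif (C, any base, T, any base, G, any 7 bases, then C and G) was searched on both strands from 250 bases before to 50 bases after the RefSeq start of each gene (TAIR10.1). Among 27443 protein-coding genes, 11.9% held at least 1 match. Of the 10 genes, 4 did, with 1 match each. In the 250 bases before the RefSeq start alone, 2 of the 10 held a match, against 9.30% of all. The matches of 3 of these are printed on the strand that reads the motif, with its fixed bases in capitals.
PDH-E1 BETA: CaTtGttttcatCG
ENO1: CgTcGccgccgcCG
PPT1: CgTtGaaaagtcCG
The match of ENO1 (chr1:27842203-27842216) lies upstream of the RefSeq start, on the strand opposite to the gene. Those of PDH-E1 BETA (chr1:10586670-10586683) and PPT1 (chr5:12588736-12588749) span the RefSeq start. The deposited models of these genes start further in, so both matches lie before the deposited starts. Which matches count as upstream thus depends on the start used.
A match is a run of letters and not a measured binding site, and a gene without one may hold the motif outside the window searched. PDH-E1 ALPHA was the other gene with a match. Whether a match goes with the ratio of a gene was not tested.

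Tissue markers were read beside these results. Of the 7 embryo and maturation markers, 4 were higher and 3 lower in GmPSKγ1, and the list summed to 30848 against 31478 FPKM. The storage protein genes did not share a direction, with CRA1 at 8831 against 6493 FPKM, CRC at 7591 against 9210 FPKM and SESA1 at 4228 against 4832 FPKM. The oil body gene OLEO1 had 9925 against 10689 FPKM. The regulators LEC1 and LEC2 were low, at 19.2 against 15.2 FPKM and 4.68 against 3.37 FPKM. FUS3, another regulator, was more abundant, at 249 against 235 FPKM. Of the 8 endosperm markers, 5 had a mean of at least 1 FPKM, with 2 higher and 3 lower. The list summed to 3669 FPKM in GmPSKγ1 against 4289 in the control, nearly all from EPR1, and MINI3 and IKU2 were listed at 0 in both. Seed coat markers summed to 897 and 946 FPKM, with 3 of 4 measured genes higher. The lower sum came from TT10, the most abundant of them, at 597 against 682 FPKM. Of the fruit wall markers, FUL and IND were under 1 FPKM in both libraries, and SHP1 had 14.7 and 12.2 FPKM. Photosynthesis genes, which green embryos also express, were higher in 3 of 3 cases and summed to 7562 and 6789 FPKM. The part of these differences in the results above was not tested, and in bulk seed more cells of a type and more RNA per cell cannot be told apart.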

How the data were processed

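Developing seeds were sequenced as 1 pooled library per genotype. The tool Bowtie 0.12.2 and the build TAIR10 are named, per the submitters' processing notes. Not given in the sources used here: how FPKM was computed, the annotation release, read length, strand and the handling of reads with several matches. The deposited FPKM values were used as they stand. Ratios were taken as log2(FPKM + 1) without further scaling, for genes averaging 1 FPKM or more. Reads were recovered by dividing FPKM × kilobase by the step of single-exon genes, using RefSeq exons (TAIR10.1) cut to the deposited ends; a count was accepted when both libraries were whole within 0.02. Of 9200 genes averaging 1 FPKM or more with 1 RefSeq transcript, of any number of exons, 98.3% were recovered, and 16581 models in all. The code was tested on simulated data. Linear ratios carry counting intervals from those reads. Of the deposited models, 32827 matched RefSeq, and deposited positions are TAIR10. The members and the 18 companion lists (111 genes) were chosen with earlier results of these data known. Of each companion list, the rule allows the 3 largest absolute ratios and the 2 most abundant genes to be named, and all enolase, WRINKLED and plastid pyruvate dehydrogenase genes. PPT2, PGK2, IAR4, FUL, IND, MINI3, IKU2, SESA1 and FUS3 were named after their values were seen. Python 3.11.15 and scipy 1.17.1 were used. One promoter sequence is not reported here.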

Additional observations from a re-analysis of the deposited data

How the results depend on the processing

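The median log2 ratio of the 10 genes ran from 0.10 (rescaled without the 50 most abundant genes) to 0.24 (without PKP3, added after seeing the data), and was 0.11 without the overlapping PPT1. These settings do not check its sign. With 9 of the 10 genes higher, neither a pseudocount, a minimum FPKM nor leaving out 1 gene can turn it. The rescalings shifted log2 ratios by less than the median. The number higher was 9, or 8 when rescaled without the 50 most abundant genes, where PKP-BETA1 turned to -0.0235. Counting intervals that excluded 1 numbered 9 (8 above, 1 below), then 8 (7 and 1) after rescaling by the median ratio and 6 (5 and 1) without the 50 most abundant genes. The median of all genes, 0.05, became -0.0258 in that last scaling, and the WRINKLED median, -0.04, became 0.0782 with a minimum of 5 FPKM, which leaves out WRI4. The share of all genes at least 1.5-fold higher was 5.30% with a pseudocount of 0.1, 0.819% with 5 and 2.03% without the 50 most abundant genes. The share at least 1.5-fold lower was 1.16% with a pseudocount of 5. The share past 2-fold was 2.30% and 0.382% with these pseudocounts, and 0.225% past 4-fold. Counted in reads, not per length, PDH-E1 BETA made up 66.3% and 66.7% of the E1 beta genes in GmPSKγ1 and control, and PKP-BETA1 98.3% of the PK beta genes in the control. No paired analysis was possible because each genotype has 1 library. For the same reason no replicate could be left out. Counting error weighs most on PKP3 and GPT1, which had the fewest reads of the 10 genes.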

Other observations

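Starch synthesis, which draws on the same plastid hexose phosphate, was near balance, with 7 of 12 genes higher and a median log2 ratio of 0.05. ADG1, the small subunit of ADP-glucose pyrophosphorylase, had 190 FPKM in GmPSKγ1 against 204 in the control (ratio 0.932, counting interval 0.899 to 0.966). The large subunit gene APL4 had 8.89 against 5.97 FPKM. The list named other routes to plastid pyruvate or acetyl-CoA was higher in 3 of 6 cases (median -0.07). This list also holds genes of phosphoenolpyruvate carboxylase, which makes neither product, and they enter the count and the median. The malic enzyme gene NADP-ME4 had 190 against 189 FPKM (ratio interval 0.972 to 1.04). PPDK, which makes phosphoenolpyruvate from pyruvate, had 8.15 against 11.2 FPKM, and the acetyl-CoA synthetase gene ACS had 16.1 against 19.4 FPKM. Of the sucrose-cleaving genes, SUS2 was by far the most abundant and was lower in GmPSKγ1, with 539 against 599 FPKM (0.899, 0.882 to 0.916), while SUS3 had 9.04 against 6.65 FPKM (ratio interval 1.17 to 1.58).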
